A study of Mus musculus with 8 samples.

Results

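The strain difference in the hypothalamus was read from 4 of the 8 single-channel arrays of the series, all those whose titles name hypothalamus. They compared C57BL/6J mice, called B6, with B6.CAST-17, a strain bred to be homozygous for donor sequence on chromosome 17 in an otherwise B6 genome. The labels do not say where the donor sequence begins and ends. All mice were male, their age was not stated, and each array read a single pool of 6 mice, with 1 array per strain and diet and no repeat. In the chow pair both strains ate LabDiet chow. In the 2-choice pair both strains had 24 h of access to one diet of carbohydrate with protein and another of fat with protein, made of 78% carbohydrate or fat and of 22% protein. Per the design text, 20 to 25 mice of each strain had first been tested for 10 days, those with the most divergent nutrient intake were kept and ate chow for 6 weeks, and the choice mice were sampled on day 2, 4 h ahead of the dark phase. Whether that collection time also held for the chow pools was not established here. The pools thus held mice selected for their intake, and a pool gives no spread between animals.

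The hypothalamus holds the neurons that balance hunger, satiety and hormone release: in the arcuate nucleus, Npy neurons promote and Pomc neurons restrain feeding, and orexin neurons of the lateral hypothalamus couple feeding to arousal. In a congenic strain only the donor segment and closely linked sequence differ from the background strain, so a strain difference that a local variant sets is looked for among genes of that chromosome. A probe can also read lower in the donor strain where its target sequence differs from the reference, and probe sequences were not used here. The study asked which genes of chromosome 17 are candidates for its effect on nutrient intake.

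The arrays carried the transcripts of this tissue. The log2 intensity of Oxt, the oxytocin precursor, was 18.05 and 18.54 on the B6 and congenic chow arrays and 17.81 and 18.37 on the B6 and congenic 2-choice arrays. Hcrt, the orexin precursor, was at 14.48, 15.72, 15.98 and 15.88 in the same order, which is kept for every set of 4 levels below. Dlx1 and Isl1, the brightest of 16 measured transcription factors of hypothalamic development, were at 13.40 to 14.10 and 12.96 to 13.79. Others were dim, such as Otp at 8.48 to 8.79 and Nkx2-1 at 8.11 to 9.65. All levels are log2 intensities after quantile normalization over the 4 arrays, and a difference is congenic minus B6 unless stated.

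Of the 342 chromosome 17 genes with a level at or above the filter level of 9.26 on all 4 arrays, 11 were at least 2-fold apart in both pairs. All 11 had opposite signs in the 2 pairs with strains as labelled, and 0 had the same sign. For 9 of the 11, both liver pairs had the sign of the hypothalamus 2-choice pair, and for 2, Rsph1 and Cyp4f15, that of the chow pair. The title and the strain field of the array labelled congenic chow name the congenic strain, while its free-text description names C57BL/6J. Those free texts also name hypothalamus for the 4 liver arrays, and a congenic pool for the liver array titled B6 2-choice. Which strain each chow pool held was not tested, and its direction is given below as labelled, and is pooled with the 2-choice direction in the fitted mean and in the fit with liver over all 8 arrays.

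Of these 11 genes, the promoters of the 3 whose 2 pairs lay furthest apart, Cyp4f14, Cchcr1 and Decr2, are shown from RefSeq (GRCm38.p6). Tcf19 and Cchcr1 are neighbours read in opposite directions, and the bases shown first are the 211 between the 2 gene models, chr17:35516838-35517048 on the plus strand. The bases of Cyp4f14 are 230 before its start, chr17:32917377-32917606 on the minus strand, and those of Decr2 are 92, chr17:26090323-26090414 on the minus strand. Each is the C57BL/6J sequence, 5′ to 3′, and the donor sequence was not used here. Capitals mark CCAAT, which is ATTGG on the other strand, and GGGCGG, which is CCGCCC.
Tcf19-Cchcr1: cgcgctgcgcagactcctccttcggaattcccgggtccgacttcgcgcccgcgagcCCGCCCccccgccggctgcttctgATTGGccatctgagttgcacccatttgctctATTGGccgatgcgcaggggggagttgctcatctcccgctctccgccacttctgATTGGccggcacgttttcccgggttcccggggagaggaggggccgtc
Cyp4f14: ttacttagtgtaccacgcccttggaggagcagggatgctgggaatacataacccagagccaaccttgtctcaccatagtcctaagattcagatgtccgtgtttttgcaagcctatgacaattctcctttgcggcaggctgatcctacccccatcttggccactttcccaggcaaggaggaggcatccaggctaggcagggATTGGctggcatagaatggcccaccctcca
Decr2: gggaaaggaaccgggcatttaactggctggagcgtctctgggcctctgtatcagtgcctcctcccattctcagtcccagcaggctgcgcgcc

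The stretch between Tcf19 and Cchcr1 held 3 CCAAT matches and 1 GGGCGG match. Over the promoters of 32851 RefSeq genes, windows of the same length held CCAAT in 30.4% and GGGCGG in 31.4% on either strand. The Cyp4f14 stretch held 1 CCAAT match, which 32.2% of windows of its length held, and the Decr2 stretch held neither motif. TATAAA, searched on both strands, was in none of the 3 stretches, and in 10.5%, 11.8% and 4.88% of windows of their lengths. The matches shown do not overlap one another, and a match is a description of letters only.

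Decr2, a peroxisomal reductase used in the oxidation of unsaturated fatty acids, had the largest 2-choice difference of the chromosome 17 genes with all 4 levels above the filter. Its levels were 10.15 and 11.52 on the B6 and congenic chow arrays and 12.61 and 9.35 on the B6 and congenic 2-choice arrays. Its difference was -3.26, a level 9.55-fold lower in the congenic 2-choice pool, against 1.38 in the chow pair as labelled. The lowest of the 4 arrays was the congenic one on 2-choice and the highest the B6 one on 2-choice, with both chow arrays between them.

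Cyp4f14, a cytochrome P450 that hydroxylates leukotriene B4, was at 10.62, 13.32, 12.43 and 9.47. It was 7.77-fold lower in the congenic 2-choice pool (log2 -2.96) and 6.47-fold higher on the array labelled congenic chow (log2 2.69). The neighbouring Cyp4f15, of the same family, went the other way in each pair: its levels were 13.51, 12.12, 12.13 and 13.22, a difference of 1.09 on 2-choice and -1.39 on chow. For both genes, the array labelled congenic chow stood beside the B6 2-choice array. The Cyp4f genes are close paralogs, and a probe could read more than 1 of them.

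Cchcr1, a coiled-coil protein of the centrosome, was at 12.93, 10.16, 10.30 and 12.60. It was 4.94-fold higher in the congenic 2-choice pool (log2 2.30) and 6.82-fold lower on the array labelled congenic chow (log2 -2.77). Tcf19, the PHD-finger gene that faces it across the stretch printed above, went the same way in each pair, at 10.83, 8.40, 9.60 and 10.80 (2-choice 1.20, chow -2.43). Its level on the array labelled congenic chow lay under the filter level, so it was not among the 11. In liver, Cchcr1 differed by 2.36 on chow and 1.28 on 2-choice, and Tcf19 by 0.68 and 0.77.

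Taf11, a subunit of the general transcription factor TFIID, was at 12.78, 15.09, 14.40 and 12.55, a difference of -1.85 on 2-choice and 2.31 on chow. Rnaset2b, a lysosomal ribonuclease with a near-identical copy, was at 13.14, 15.32, 15.27 and 13.77, a difference of -1.5 and 2.19. Enpp5, a membrane phosphodiesterase, was at 13.21, 14.71, 15.40 and 14.02, a difference of -1.39 and 1.5. All 3 were bright on all 4 arrays, and in each the 2 higher arrays were the congenic chow and B6 2-choice ones as labelled.

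Pla2g7, which inactivates platelet-activating factor, was at 11.90, 13.46, 13.76 and 12.54, a difference of -1.23 on 2-choice and 1.56 on chow. Vmac, a vimentin-associated coiled-coil protein, was at 11.33, 12.37, 12.25 and 11.24, a difference of -1.01 and 1.03, and was the 11th by the smaller of its 2 differences. These complete the 7 genes that were lower in the congenic 2-choice pool.

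Rsph1, a part of the radial spokes of motile cilia, was at 13.76, 12.11, 11.87 and 14.18, a difference of 2.31 on 2-choice and -1.65 on chow. Dynlt1b, a dynein light chain with near-identical copies on the same chromosome, was at 15.91, 14.15, 14.49 and 15.63, a difference of 1.14 and -1.76. With Cchcr1 and Cyp4f15 they are the 4 of the 11 that were higher in the congenic 2-choice pool. In liver, Rsph1 differed by -0.35 on chow and -0.98 on 2-choice, opposite to the hypothalamus 2-choice pair, while Dynlt1b differed by 1.34 in both liver pairs.

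**Figure D1:**
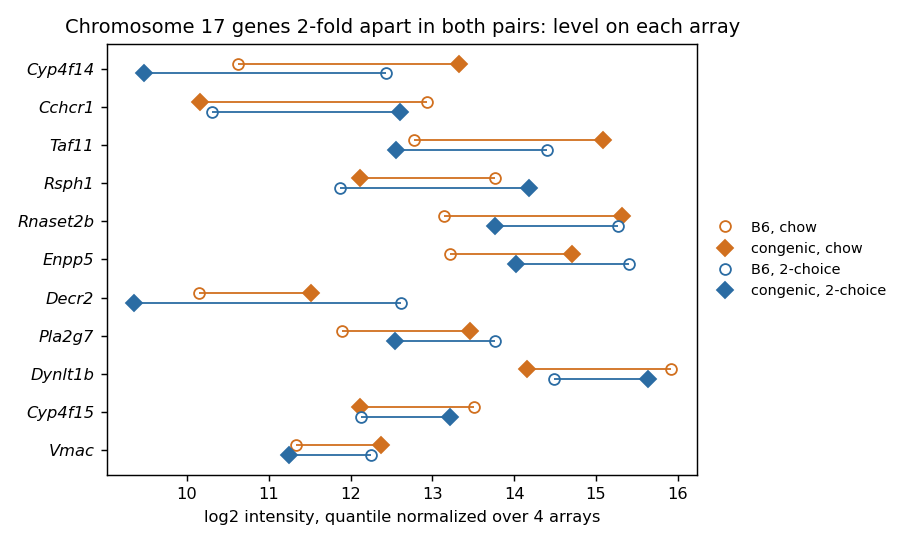
The log2 intensity, quantile normalized over the 4 arrays, is plotted for each of the 11 chromosome 17 genes that were at least 2-fold apart in both pairs, with chow in orange, 2-choice in blue, B6 as open circles and the congenic strain as filled diamonds. Each point is 1 array of 1 pool, and in all 11 genes the lines of the 2 pairs run in opposite directions.

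In the 2-choice pair, of the 7079 genes with all 4 levels at or above the filter, 54 (0.763%) were at least 2-fold apart, with 1 array per strain and hence no test. On chromosome 17 they were 16 of 342 (4.68%), against 38 of 6730 (0.565%) on the other chromosomes, and the next highest share was 1.73% (3 of 173) on chromosome 18. Over all 9886 tested genes (3.75% past 2-fold), dim ones included, the shares were 7.90% (38 of 481) and 3.54% (333 of 9397). The 16 included 10 that were lower and 6 that were higher in the congenic pool. Beside the 11 above they were Mtch1, a mitochondrial outer membrane protein (-1.27), Rsph3a, another radial spoke protein (-1.09), Ergic1, of the secretory pathway (-1.08), Ly6g6d, of the Ly6 family (1.07), and Tbc1d24, a TBC-domain protein of synaptic vesicles (1.06).

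Mtch1 was at 15.45, 15.95, 16.75 and 15.47, so that its chow difference of 0.50 was opposite to its 2-choice one. Tbc1d24 was at 13.40, 12.69, 11.72 and 12.78, again opposite on chow (-0.71), and in liver it was higher on the congenic arrays by 0.96 and 1.47. Ergic1 and Ly6g6d were the 2 of the 16 with the same sign in the chow pair, at -0.37 and 0.33. Agpat1, an acyltransferase of phospholipid synthesis, was just under 2-fold on 2-choice (-0.98) and was 2.29 apart on chow, at 11.17, 13.46, 12.28 and 11.29.

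The chow pair did not set chromosome 17 apart by share. Of the 7079 genes with all 4 levels above the filter, 1127 (15.9%) were at least 2-fold apart in it. On chromosome 17 they were 65 of 342 (19.0%), against 15.8% on the other chromosomes, where chromosome 16 had 19.4% and chromosome 1 had 18.3%.

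**Figure D2:**
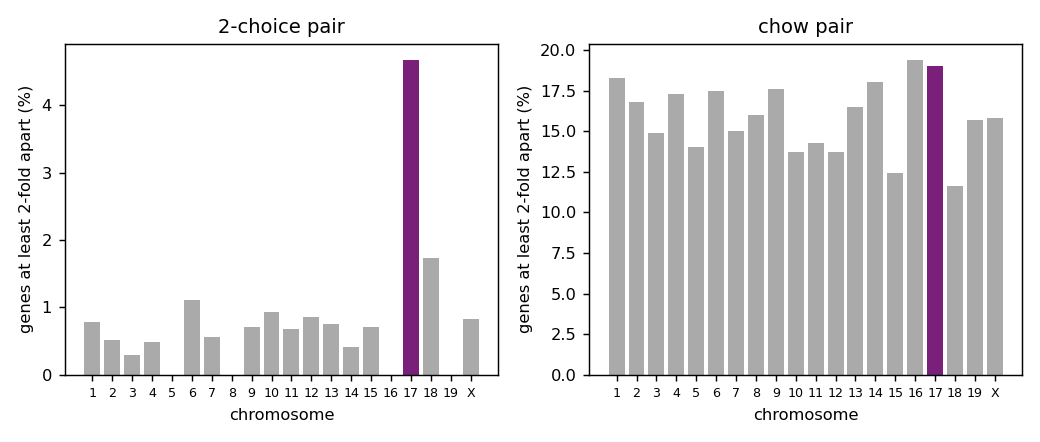
The bars give the percent of genes on each chromosome that were at least 2-fold apart between strains, among genes with all 4 levels at or above the filter, in the 2-choice pair on the left and the chow pair on the right, each on its own axis from 0. Chromosome 17, in purple, stands at 4.68% in the 2-choice pair against at most 1.73% elsewhere, and at 19.0% in the chow pair, within the range of the other chromosomes.

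The 2 pairs were set against each other gene by gene, and they share no array. Among the 7079 genes, 17 were 2-fold apart in both pairs with opposite signs (0.24%) and 8 with the same sign (0.113%). Chromosome 17 held 11 of the 17 and 0 of the 8. Across its 342 genes the correlation of the 2 differences was -0.38 (Spearman -0.22), against 0.01 and -0.01 over 6730 genes elsewhere. These values are across genes, which share arrays and are not replicates.

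The opposition was clearer among larger differences. Of the 111 chromosome 17 genes at least 1.25-fold apart on 2-choice, 74 (66.7%) had the opposite sign on chow, of the 45 at 1.5-fold 33 (73.3%), and of the 16 at 2-fold 14 (87.5%). On the other chromosomes the shares were 50.8%, 50.4% and 42.1%. The liver pairs, which the choice of these genes did not use, had the 2-choice sign for 13 of the 16 genes on chow and for 13 on 2-choice, against 15 and 13 of 38 genes elsewhere.

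**Figure D3:**
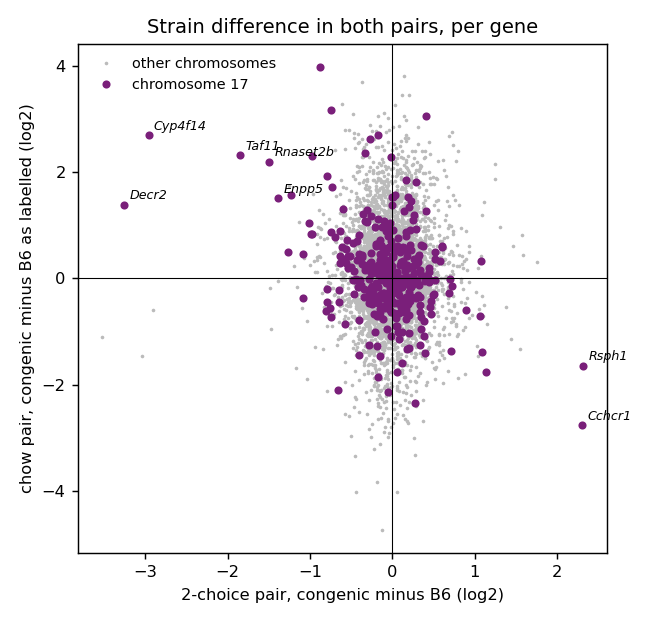
Each point is 1 gene with all 4 levels at or above the filter, placed by its log2 strain difference in the 2-choice pair (x axis) and in the chow pair as labelled (y axis), with chromosome 17 in purple. Far from 0 on the x axis, the purple points lie in the upper left and lower right, 14 of the 16 genes past 2-fold on 2-choice, while the grey points lie on all sides of 0.

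Genes with a level under the filter on some array were less uniform. A further 11 of the 481 tested chromosome 17 genes were 2-fold apart in both pairs, 7 with opposite signs (Plg, Prss22, Tcp11, Tcf19, Tcte1, Cd70 and Ltbp1) and 4 with the same sign (Fgd2, Tbc1d22b, Marchf2 and Ubr2). Tcte1, a gene of the sperm flagellum, was at 12.32, 8.67, 10.33 and 11.81. Ubr2, a ubiquitin ligase, was at 9.87, 7.29, 11.00 and 9.96. In each of these 11 the lowest level lay under 9.26, where values carry little signal.

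The opposition was not confined to a single stretch of the chromosome, but was uneven along it. In blocks of 50 tested genes in RefSeq gene order, the correlation of the 2 differences among genes with all 4 levels above the filter was negative in 9 of 10 blocks. It was -0.67 (37 genes) in the block from Snrpc to Zfp955a, which holds Taf11, Rsph1, Cyp4f14 and Cyp4f15. It was 0.24 (36 genes) in the block from Zfp947 to Nubp2, and -0.08 and -0.17 in the last 2 blocks, from Tnfsf14 to Mettl4. The block from Snrpc to Zfp955a held 5 tested genes 2-fold apart in both pairs with opposite signs. The blocks from Zfp101 to Clic1 and from Sos1 to Mettl4 held 0. Like blocks of other chromosomes were not computed, and over whole chromosomes elsewhere the correlation ran from -0.11 to 0.15.

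**Figure D4:**
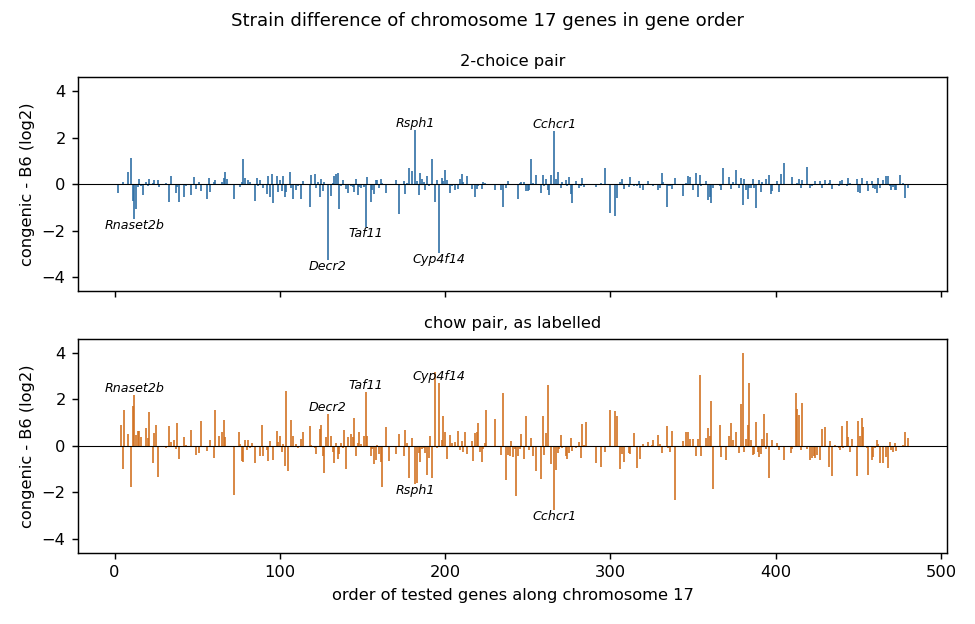
The log2 strain difference of the 342 chromosome 17 genes with all 4 levels at or above the filter is drawn in gene order, counted over all 481 tested genes, for the 2-choice pair (top) and the chow pair as labelled (bottom). Decr2, Cyp4f14, Taf11 and Rnaset2b point down in the top panel and up in the bottom one, and Rsph1 and Cchcr1 the reverse.

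The 2 pairs also differed in how far their arrays lay apart. Over 19807 tested probes, those whose mean level was at or above the 40th percentile, 1048 (5.29%) were at least 2-fold apart on 2-choice, 514 higher and 534 lower. On chow they were 6772 (34.2%), 3416 higher and 3356 lower. With intensities as deposited, each under its own filter, the counts were 1903 and 4689, a smaller gap between the pairs. The median absolute difference was 0.21 and 0.61, and the arrays of the pair correlated at 0.973 and 0.841. The liver pairs lay between, with 18.9% and 17.9% of probes 2-fold apart.

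The spread depended on level. Across 4 classes of equal size by mean level, from dim to bright, the shares at least 2-fold apart were 14.4%, 5.61%, 0.828% and 0.363% on 2-choice, and 51.5%, 58.3%, 23.5% and 3.41% on chow. Both chow arrays had levels of their own: among the 7615 probes with a median level of at least 12 over the arrays, 66 were at least 4-fold lower on the B6 chow array than on all others and 58 on the congenic chow array, against 2 and 1 on the B6 and congenic 2-choice arrays. Among 333 genes with more than 1 tested probe, the difference read by 2 probes of 1 gene disagreed by at least 2-fold for 8.41% on 2-choice and 42.9% on chow. For the 167 genes whose dimmer probe was at or above the median level it was 0.0% and 22.2%. The differences of the 2 probes correlated at -0.014 on 2-choice and -0.017 on chow over the 333 genes, and at 0.222 and -0.06 over the 167. The titles of the chow arrays hold the word ABI and those of the other arrays do not, and what it marks was not established here. Diet, pool, scaling and what that word marks cannot be told apart as the source of the wider chow spread.

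**Figure D5:**
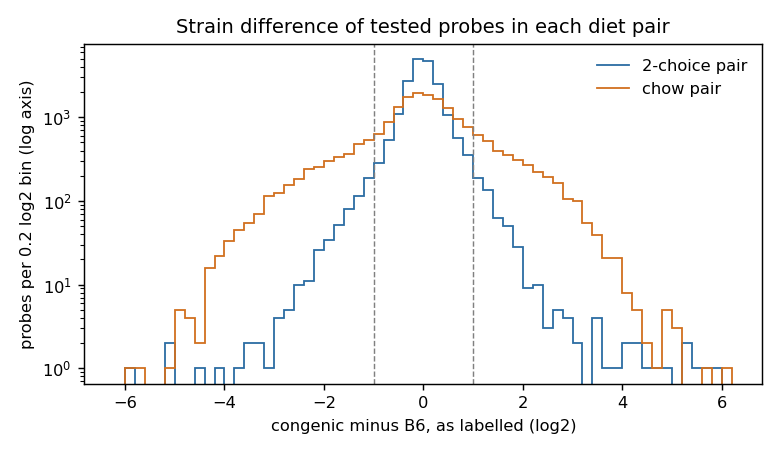
The number of tested probes per bin of 0.2 in log2 strain difference is drawn on a log axis for the 2-choice pair (blue) and the chow pair as labelled (orange), with dashed lines at 2-fold. The chow pair is the wider, with 34.2% of 19807 probes beyond the dashed lines against 5.29%, and both are centred near 0.

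Among genes bright on both 2-choice arrays (6072 genes with both levels at or above 11.08, the median of tested probes), the 10 lowest and 10 highest in the congenic pool held 8 genes of chromosome 17, which made up 4.58% of the genes ranked. The largest was Pcid2, an mRNA export factor, at 12.61, 8.74, 12.16 and 15.74: its difference was 3.58 on 2-choice and -3.87 on chow, with both B6 levels close together. Rnf123, a ubiquitin ligase, was at 12.32, 11.22, 14.95 and 11.43, and was 11.4-fold lower (log2 -3.52). Mcm3ap, an mRNA export scaffold, was at 12.47, 11.00, 15.60 and 12.56, and was 8.23-fold lower (log2 -3.04). For Rnf123 and Mcm3ap the B6 2-choice array was the high one of the 4.

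Kcnd2, a potassium channel subunit of dendrites, was at 16.23, 16.66, 14.24 and 15.83, with the B6 2-choice array low (log2 1.59). The others lower in the congenic 2-choice pool off chromosome 17 were Gh and Prl (described with the pituitary markers), Stac2 (-1.49) and the kinase Mink1 (-1.39). The others higher were the export factor Nxt2 (1.30), Arhgap5 (1.09), Atic of purine synthesis (0.93) and the syndecan Sdc4 (0.91). The last 2 were under 2-fold.

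The genes ranked first in the chow pair (5192 bright genes) were of another kind: 10 of the 20 had the array labelled congenic chow alone more than 2-fold from each of the others, and 6 the B6 chow array. Magee1, a MAGE family gene of the X chromosome, was at 17.06, 13.03, 17.33 and 17.39, a chow difference of -4.03. Srp54a, of the signal recognition particle, was at 16.56, 12.72, 16.98 and 16.79 (-3.84). Rpl32, a ribosomal protein, was at 18.44, 16.06, 17.73 and 17.82 (-2.39). In each the level on the array labelled congenic chow was the low one of the 4.

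The lower ones also held Marcksl1 (-2.97), B230219D22Rik (-2.84), Hacd3 (-2.63), the RNase P subunit Pop5 (-2.63), Cadm4 (-2.21), the endothelial nitric oxide synthase Nos3 (-2.20) and Ankrd40 (-2.19). Psma5, a proteasome subunit, was highest on the congenic side at 12.15, 14.85, 14.81 and 14.38 (2.71), with the B6 chow array the low one. The synaptic vesicle protein Rph3a (2.34), Cit (2.26), Zmat1 (2.19), Oasl2 (2.19) and Fam118b (1.91) followed. The remaining 4, Taf11, Agpat1, Rnaset2b and the endosomal GTPase Rab5a (1.93, against -0.80 on 2-choice), lie on chromosome 17, and all 4 had the opposite sign on 2-choice.

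Of the 7079 genes, 3486 had the same sign in both pairs, and 8 were 2-fold apart in both with that sign. Septin2, a cytoskeletal GTPase, was at 9.50, 11.37, 9.71 and 10.96 (chow 1.87, 2-choice 1.25). D2hgdh, which oxidises D-2-hydroxyglutarate, was at 9.48, 11.63, 9.44 and 10.68 (2.15 and 1.25). These 2 genes of chromosome 1 were higher on both congenic arrays, a sign for which they had been chosen. In the fitted mean described below neither was called, at 1.56 ± 0.88 SE and 1.7 ± 0.89 SE (limma adjusted p = 0.999 for both).

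Fam228a (1.44 and 1.11) and Arhgap5 (1.19 and 1.09) were also higher on both. Mcm3ap (-1.46 and -3.04), Rnf123 (-1.10 and -3.52), the membrane protein Tmem98 (-1.68 and -1.17) and the calcineurin target Nfatc1 (-1.89 and -1.04) were lower on both. The 20 genes named for the largest shared difference held 0 of chromosome 17. Hcn2, a pacemaker channel, was among them at 11.27, 12.17, 10.78 and 11.68, a difference of 0.89 in both pairs. Perp, a desmosomal p53 target, fell outside that rule because of dim B6 levels and was named after its values were seen: it was at 7.53, 10.88, 9.08 and 12.24, a difference of 3.35 on chow and 3.16 on 2-choice.

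The mean strain difference over both diets was fitted with limma, with diet as a term. Its 1 residual degree of freedom is the gap between the 2 pairs. The eBayes step drew each probe's error from that gap toward a trend with level over all probes. An SE below can thus be small where the 2 pairs disagree. The fit called 21 of 19807 probes (0.106%) at an adjusted p under 0.05, 6 higher and 15 lower in the congenic pools. At an unadjusted p under 0.05 there were 930, and without the trend 0 probes were called. Of the 21, 15 had a gene name, and 0 of these lay on chromosome 17. Mcm3ap had the lowest p (log2 -2.25 ± 0.33 SE, limma adjusted p = 0.000114), and was lower in both pairs.

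Most calls rested on 1 pair. In 16 of the 21 the other pair was within 1.5-fold, and in 13 the array labelled congenic chow lay over 1 log2 unit below the other 3. Son, a splicing cofactor, was at 10.37, 15.06, 14.79 and 15.02, so its fitted 2.46 ± 0.38 came from a low B6 chow array. Srp54a (-2.02 ± 0.31) came from a low congenic chow array, as did Marcksl1, Prrc2b, Atraid, Abhd14a, Metap2, Hacd3 and B230219D22Rik.

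Magee1 was fitted at -1.99 ± 0.34 and differed by 0.06 on 2-choice alone. Trim46, a TRIM protein of the axon initial segment, was at 14.19, 13.59, 13.73 and 10.83, with the congenic 2-choice array low (-1.75 ± 0.33). Rabgef1, a Rab5 exchange factor, was at 9.02, 10.92, 9.60 and 14.89 (3.60 ± 0.75), Rnf123 was fitted at -2.31 ± 0.40 and Kcnd2 at 1.01 ± 0.21. The count ranged from 0 to 52 over other scalings, filters and variance models. With intensities as deposited it was 52, 24 higher and 28 lower.

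Whether the strain difference differed between hypothalamus and liver was tested with limma over all 8 arrays. It called 0 of 15466 probes (0.0%), with 836 at an unadjusted p under 0.05 and a lowest adjusted p of 0.796. Without the hypothalamus chow pair it called 30 (0.194%), and without the hypothalamus 2-choice pair 1108 (7.16%). In these smaller fits the error comes from the liver arrays alone, so the p-values leave out the spread of the hypothalamus.

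Of the 11 chromosome 17 genes, 9 were tested in both tissues. Against liver, 9 of the 9 passed in the chow pair as labelled and 2 in the 2-choice pair. Decr2 differed from liver by 3.85 ± 0.28 SE (limma adjusted p = 2.17e-05) in the chow pair. Cyp4f14 differed by 4.36 ± 0.23 (limma adjusted p = 2.75e-06) there and by -1.29 ± 0.23 (limma adjusted p = 0.0477) in the 2-choice pair. Cyp4f15 differed by -1.05 ± 0.23 and 1.42 ± 0.23. These genes had been chosen for large differences in the hypothalamus pairs, and with both pairs in the fit 0 of the 9 passed.

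Among the other calls against liver in the 2-choice pair was Saa4, a serum amyloid apolipoprotein, at 8.89, 9.27, 8.41 and 11.86 in hypothalamus (3.14 ± 0.24). Apoa1, the main HDL protein (1.86 ± 0.23), Perp (3.41 ± 0.40), Pcid2 (3.80 ± 0.49), Rassf3 (1.95 ± 0.28) and the nuclear receptor Ppara (1.55 ± 0.23) were also called higher. Saa4, Apoa1 and Perp passed the filter on mean level only through the congenic 2-choice array, the value that was tested, so their calls are descriptions. H2-Q10, a class I gene secreted by liver (1.56 ± 0.23), and Sult1c2, a sulfotransferase (-3.30 ± 0.57), were the other 2 calls on chromosome 17. H2-Q10 was at 9.51 and 9.89 on the 2-choice arrays, and its contrast came mostly from liver, where it differed by -1.18 in both pairs. Sult1c2 was at 9.66 and 8.19 on the 2-choice arrays, the second under the filter level, a difference of -1.47. In liver it differed by 2.21 on chow and 1.44 on 2-choice.

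Feeding signals were compared with 29 gene lists, whose 316 tested members stand beside 3.75% of all 9886 tested genes 2-fold apart on 2-choice and 29.6% on chow. On 2-choice, 23 of the 29 lists had no member 2-fold apart and list medians ran from -0.49 to 0.50. On chow, 4 lists had none and medians ran from -1.22 to 1.91. Of 11 feeding-raising genes, 1 was higher (Cnr1, the cannabinoid receptor, 1.04) and 1 lower (Mchr1, a melanin-concentrating hormone receptor, -1.06) on 2-choice, with a median of 0.02. The shares of all genes in those directions were 1.84% and 1.91%, and both receptors were dim.

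Npy, which drives feeding, was at 15.27, 14.36, 14.24 and 14.27. Pdyn, the dynorphin precursor, was at 15.88, 16.80, 15.74 and 15.89, and Gal, the galanin precursor, at 14.57, 14.73, 14.06 and 14.19. For all 3 the 2-choice arrays were within 0.15 of each other, and the chow arrays differed by -0.91, 0.92 and 0.16. Hcrt was 1.24 higher on the array labelled congenic chow, where the B6 chow array was the low one.

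Of 16 feeding-limiting genes, 0 were 2-fold apart on 2-choice (median -0.08), and 1 was higher and 3 lower on chow (median -0.24), where 15.7% and 13.9% of all genes were higher and lower. Pomc, the melanocortin precursor, was at 12.87, 12.15, 13.14 and 12.56, a difference of -0.72 and -0.57, both under 2-fold. Cartpt was at 15.13, 14.98, 15.47 and 15.33, and Trh at 15.42, 15.47, 15.59 and 15.36. Crh, the corticotropin-releasing hormone, was at 8.20, 12.48, 11.50 and 11.42, so its chow difference of 4.28 was a B6 chow array under the filter level.

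The chow members that were lower were Crhr1, Mc4r and Adcyap1r1, receptors of stress, melanocortin and PACAP signals. Their 2-choice differences were 0.64, 0.26 and 0.52. The 22 tested neuroendocrine genes had 0 past 2-fold on 2-choice and 4 higher and 2 lower on chow. The 4 were the dopamine transporter Slc6a3 (3.64), Ghrh (1.83), Nts (1.46) and the dopamine synthesis enzyme Th (1.11). Slc6a3 was at 8.13, 11.77, 12.96 and 12.22, another low B6 chow level.

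Of 11 tested transcription factors of hypothalamic regions, 6 were lower and 1 higher on chow as labelled (median -1.22) and 0 were past 2-fold on 2-choice (median 0.19). Of the 11, 4 passed the filter on mean level only through their highest array. For Rax that was the B6 chow array, so the chow counts and median are descriptions. Rax, of tanycytes and the developing hypothalamus, was at 10.44, 8.12, 9.94 and 9.55, and Six6 at 10.22, 7.86, 10.87 and 10.74. Lhx1, of the suprachiasmatic nucleus, was at 10.91, 8.53, 10.24 and 10.88, while Sim1, of the paraventricular nucleus, was at 11.58, 12.68, 12.05 and 12.43. Rax, Six6 and Lhx1 were dim, in the level classes where 51.5% and 58.3% of probes were 2-fold apart on chow. The array labelled congenic chow had 11 of 16 measured members under the filter level, against 3 or 4 on the others.

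Cell type lists had 0 tested members past 2-fold on 2-choice for neurons, astrocytes, oligodendrocytes, microglia and endothelium. On chow, 29.6% of all tested genes were past it. There, 2 of 8 astrocyte genes (Fgfr3 2.37 and Gja1 1.72), 3 of 8 oligodendrocyte, 2 of 8 microglia and 2 of 9 endothelial genes were past it. These counts are near that share, and Fgfr3 was at 8.49 on the B6 chow array, under the filter level. Of 13 neuron genes 0 were 2-fold apart in either pair, with medians of 0.05 on chow and 0.03 on 2-choice. Slc32a1, the vesicular GABA transporter, was at 17.18, 17.35, 17.19 and 17.13, and Slc17a6, the vesicular glutamate transporter, at 15.09, 15.14, 15.07 and 15.23. Of 5 tanycyte and ependyma genes 0 were 2-fold apart in either pair. In bulk tissue, fewer cells of a type and less RNA per cell cannot be told apart.

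Of 5 tested anterior pituitary genes 2, Gh and Prl, were at least 2-fold lower in the congenic 2-choice pool, against 1.91% of all tested genes. Of the 8 measured, 1 was at least 2-fold higher there: Tbx19 (1.2), whose mean level was under the filter. Cga differed by -0.49, Lhb by 0.17 and Tshb by 0.23. The choroid plexus, thalamus, cortex and striatum, and meninges lists had 0 tested members past 2-fold there. The 9 tested meninges members were all lower in the congenic 2-choice pool, from -0.89 to -0.09. Among members with a mean level under the filter, Bgn (-2.43) and Slc6a13 (-1.2) of the meninges list were lower, and Gbx2 (1.63) of the thalamus list was higher. Gh, growth hormone, was at 8.28, 8.74, 14.31 and 12.24, and Prl, prolactin, at 9.22, 8.62, 13.02 and 11.08. Cga, the glycoprotein hormone alpha chain, was at 8.61, 9.28, 13.12 and 12.63. Gh, Prl and Cga were near or under the filter level on both chow arrays and well above it on both 2-choice arrays, and were lower in the congenic than in the B6 2-choice pool. The other tested members did not follow that pattern: Lhb was at 10.21, 10.40, 9.78 and 9.96, and Tshb at 10.87, 9.06, 10.06 and 10.29.

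Of 13 measured liver genes 3 were at least 2-fold higher and 0 lower in the congenic 2-choice pool, with a median of 0.49. Over all 33012 probes, without a filter, 3203 were 2-fold apart on 2-choice in either direction. In the dimmest class of tested probes the share was 14.4%. Among them Alb and Apoa1 passed the filter on mean level only through that array, so the count over tested members is not given. Alb, albumin, was at 8.75, 8.81, 9.35 and 11.42, Apoa1 at 9.24, 8.84, 9.13 and 11.12, and Cyp2e1, a hepatic P450, at 8.68, 9.55, 9.68 and 10.83. In each the congenic 2-choice array was the highest of the 4. The part of pituitary or liver RNA in the strain differences of other genes was not tested.

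Of 17 tested genes chosen from chromosome 17 for roles in lipid use, energy and feeding, 1 was higher and 3 lower on 2-choice (median 0.16), and 7 higher and 2 lower on chow (median 0.33). Of all 481 tested chromosome 17 genes, 7.90% were past 2-fold on 2-choice and 29.7% on chow. The 3 lower were Decr2, Cyp4f14 and Pla2g7 and the 1 higher was Cyp4f15, all of them among the 11 genes singled out above. This list was drawn up with results of these arrays known. Glo1, which detoxifies methylglyoxal, was at 14.99, 13.62, 14.33 and 15.04 (chow -1.37, 2-choice 0.71). Abcg1, a cholesterol exporter, was at 13.11, 13.44, 12.22 and 12.80 and did not pass 2-fold in either pair.

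Vegfa was at 8.86, 11.56, 12.07 and 12.50, and Cyp4f13 at 8.70, 11.44, 10.56 and 11.24. For both the B6 chow array was the low one. Mmut, of methylmalonate use, was at 14.59, 14.31, 14.17 and 14.86, a difference of 0.69 on 2-choice. Glp1r, the GLP-1 receptor, was dim, at 8.89, 9.82, 9.72 and 9.79, and differed by 0.07 on 2-choice.

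The MHC genes of chromosome 17 differ widely between mouse strains. Their 3 lists, which also hold Cd74 of chromosome 18 and B2m of chromosome 2, had no tested member 2-fold apart on 2-choice. The class II gene H2-Ab1, whose mean level was under the filter, was 1.65 higher in the congenic 2-choice pool. Of 13 tested class I and peptide loading genes 2 were higher and 3 lower on chow, of 4 class II genes 2 and 1, and of 4 complement and TNF genes 2 and 2. Of these, 2 class I and peptide loading genes and 1 class II gene passed the filter on mean level only through their highest array. The largest chow differences were 2.61 for H2-Q2, 2.54 for the peptide transporter Tap2 and 2.47 for Aif1, against -0.27, -0.77 and -0.17 on 2-choice. Tap2 and Aif1 were at 8.68 and 8.98 on the B6 chow array, under the filter level. H2-K1, a classical class I gene, was at 13.54, 14.09, 13.86 and 13.30, and H2-T23 at 11.76, 11.56, 12.12 and 11.31. Class I genes are close paralogs whose probes may read several of them. H2-Ea, which encodes a class II chain missing in B6 mice, was at 9.02, 9.30, 8.69 and 9.35, near the filter level on all 4 arrays.

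Immediate early and clock genes, which follow activity and time of day, had 0 of 11 and 0 of 11 tested members 2-fold apart on 2-choice. Among members with a mean level under the filter, Per1 (-1.84) and Egr2 (-1.22) were lower and Fosl2 (1.0) higher in the congenic 2-choice pool. Fos was at 13.37, 13.18, 13.72 and 13.80, and Dbp, a clock output gene, at 16.95, 16.30, 16.26 and 16.32. On chow 1 immediate early gene was higher and 3 lower, and 2 clock genes were higher and 2 lower. Of the 11 tested immediate early genes, 1 passed the filter on mean level only through its highest array. Per2 was at 11.85, 8.15, 10.90 and 11.06 and Nr1d1 at 8.40, 10.89, 11.19 and 10.90, the first low on the congenic and the second on the B6 chow array as labelled.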

How the data were processed

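The deposited table held linear probe intensity for 33012 probes per array, and how the authors corrected for background or normalized is not stated in the labels. As deposited, both arrays of a pair shared a median intensity, 559.6 on chow and 1337.5 on 2-choice, so strain was compared within a pair. They also shared log2 quartiles, 8.45 and 10.73 on chow and 8.93 and 12.96 on 2-choice, so normalizing the pairs together changed the width of their differences. Intensities were taken to log2 and quantile normalized over the 4 hypothalamus arrays. Probes with a mean level at or above the 40th percentile were tested. The platform table gave 14411 probes 1 gene symbol, 247 several and 18354 none, and the brightest probe stood for a gene. Names, chromosomes and gene order came from RefSeq (GRCm38.p6), which matched 14402 probes by gene ID. The number of arrays limits the precision.

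With 1 pool per group, a pair has no test, and a gene is counted where at least 2-fold apart. The mean over diets (strain and diet terms, 4 arrays) and the contrast with liver (8 arrays) used limma 3.58.1 (R 4.3.3) with a trend in eBayes and Benjamini-Hochberg adjustment, and checked on simulated data. These p-values reflect the spread of these pools, drawn toward a trend over all probes, and no spread of animals. Named genes were the 10 chromosome 17 genes furthest apart in both pairs (with the 11th), the 10 highest and lowest bright genes of each pair, the 20 with the largest shared difference, all limma calls, and members of 29 lists. Others named are stated. Members and lists were chosen with earlier results of these data known. Other scalings, filters, folds, variance models and leaving out a pair were tried.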

Additional observations from a re-analysis of the deposited data

Results flagged for a closer look

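The 11 chromosome 17 genes were singled out because both of their strain differences were past 2-fold and ran in opposite directions on the 2 diets as labelled. The 2-choice difference minus the chow difference, in log2, was -5.65 for Cyp4f14, -4.63 for Decr2, -4.16 for Taf11, -3.68 for Rnaset2b, -2.89 for Enpp5, -2.79 for Pla2g7 and -2.05 for Vmac. It was 5.07 for Cchcr1, 3.96 for Rsph1, 2.90 for Dynlt1b and 2.47 for Cyp4f15. With 1 pool per strain and diet this difference was not tested, since it has no error term. The diet and the labels of the chow pair cannot be told apart as its source.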

How the results depend on the processing

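No paired analysis was possible because the labels give no replicate numbers and each strain and diet had 1 pool; diet was the block of the fitted mean. In the counts below, probes are counted per pair, and genes for both pairs and chromosome 17. With intensities as deposited, or centred on medians, 1903 probes were 2-fold apart on 2-choice and limma called 52. Without a filter these were 3203 on 2-choice, 10748 on chow, 220 genes with the same and 194 with opposite signs, on chromosome 17 76 genes on 2-choice, 24 opposite and 7 same, 26 list members on 2-choice and 1 limma call. At the 60th percentile they were 201 and 3297 probes, 3 same, 9 opposite, 7 and 54 list members and 0 calls. At 1.5-fold they were 2880 and 10186 probes, 64 same, 93 opposite, and on chromosome 17 45, 25 opposite and 5 same. At 3-fold they were 297 and 3921, 0 same, 4 opposite, and on chromosome 17 5 and 4 opposite. With both arrays of a pair above the filter, 223 and 2962 probes were counted. Limma called 1 with all 8 arrays quantile normalized together, 0 in the 8-array fit, 0 without a trend and 3 with robust eBayes. The contrast with liver called 30 without the hypothalamus chow pair and 1108 without the 2-choice pair. Magee1 turned from -1.99 to 0.06 without the chow pair. The cause was not tested. Of 74 such alternative counts 33 were within 1.5 times and 41 were not, and of 108 single-gene values 65 moved by less than the spread, 42 by more and 1 reversed. The opposite signs of the 11 genes held under each scaling tried. Centring on medians left each pair difference as deposited, because both arrays of a pair share a median, so it was no separate check of these signs. The tallies above hold both settings.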
